A study of Rattus norvegicus with 10 samples.

Results

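Cytochrome P450 genes, the Cyp genes, were followed in the fetal rat kidney. The members were all probe sets whose single gene symbol had the form Cyp followed by a family number, a subfamily letter and a gene number. The rule left out the vitamin D enzymes Cyp24a1 and Cyp27b1, and a probe set annotated to several genes could not be a member. Of the 15923 probe sets on the array, 61 carried such a symbol. Among them 6 named several genes and 1 was left out by name, which gave 54 member probe sets of 51 genes, 3 of the genes with 2 probe sets. The array named 10412 genes by a single symbol. Symbols of another form, such as Cyp51, are outside the rule.

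Total RNA of 10 kidney samples taken on day 22 of gestation, close to birth, was measured on 1-colour Affymetrix arrays, 1 per sample. In the normal group (replicates 1 to 5) the mothers had a regular diet and no implant is named in the labels. In the treated group (replicates 6 to 10) Wistar mothers of 200 to 280 g were implanted subcutaneously with a 2 mm piece of an implant that releases insulin slowly, first a week before mating and then a week after it, and ate a normal diet. The series describes the treated fetuses as growth restricted. All cages held 4 animals, and the strain and weight of the normal mothers are not in the labels used here. The labels name no mother, litter, fetal sex or batch for a sample, so the p-values reflect the spread among these 10 samples alone; that spread may be technical.

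Cytochrome P450 enzymes are membrane-bound haem proteins that insert an oxygen atom into small lipophilic molecules. Most take electrons from the reductase encoded by Por. In the kidney, members of family 4 and subfamily 2c turn arachidonic acid into hydroxylated and epoxidised lipids that act on vascular tone and on salt transport in the tubule. The liver holds many other members of families 1 to 3, which clear drugs and steroids, and the adrenal cortex holds those that build steroid hormones.

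Signals are MAS5 values, linear intensities scaled alike on every array. They do not allow the level of a gene to be set against that of another gene, because each probe set binds with its own strength. A probe set was counted as above threshold on an array when its signal reached that array's 40th percentile, which lay between 79.2 and 87.6, and it was tested when this held on at least 5 of the 10 arrays. Of the 54 member probe sets, 9 were above threshold on all arrays, 15 on some and 30 on none. The normal arrays had 11 to 15 members above threshold and the treated arrays 11 to 19. The filter left 12 members, each of a different gene. Nearest to the limit, Cyp4a8 was above threshold on 6 arrays and was tested, while Cyp27a1 was above it on 3 and was not.

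The kidney markers fixed for the proximal tubule, the nephron segment where the renal P450 enzymes are mostly found, were tested for 24 of 25 probe sets. The untested one, of Kap, ran from 4.3 to 15.1. Alongside the kidney signal, treated replicate 6 carried the most liver marker signal and normal replicate 1 the most adrenal marker signal. Most results that rest on these arrays are given with and without them. Xist, a transcript of cells with more than 1 X chromosome, ran from 0.8 to 2 in the normal group and from 42.4 to 70.5 in the treated group. The treatment therefore cannot be told apart from whatever sets Xist in these samples. In a bulk sample, fewer cells of a type and less RNA per cell cannot be told apart either.

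No tested P450 probe set passed the test between groups. With limma, 0 of 12 had an adjusted p under 0.05, against 1 of all 9601 tested probe sets, or 0.0104%. At an unadjusted p under 0.05 there were 3 of 12, Cyp2e1 with the higher treated mean and Cyp4a1 and Cyp4a3 with the lower one, against 515 of 9601 probe sets, or 5.36%. The lower direction alone held 2 of 12 members and 281 of 9601 probe sets, or 2.93%. The exact rank test passed 0 of 12 members, with 3 at an unadjusted p under 0.05. That test could not pass any member here. Its p cannot go below 0.00794, and with only 100 of 9601 tested probe sets free of overlap that value does not survive the adjustment. Values after ± are SDs for signals (n = 5 in each group unless stated) and standard errors for log2 differences, which are treated minus normal on the scale of log2(signal + 16). Of the 12 members, 7 had a log2 difference above 0 and 5 below, with a median of 0.0086. Over all tested probe sets 50.9% were above 0 and the median was 0.00200. Without treated replicate 6, 4 of the 12 were above 0 and the median was -0.016. In 0 of 12 members did every array of a group lie beyond every array of the other, which 1.04% of all tested probe sets did.

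**Figure D1:**
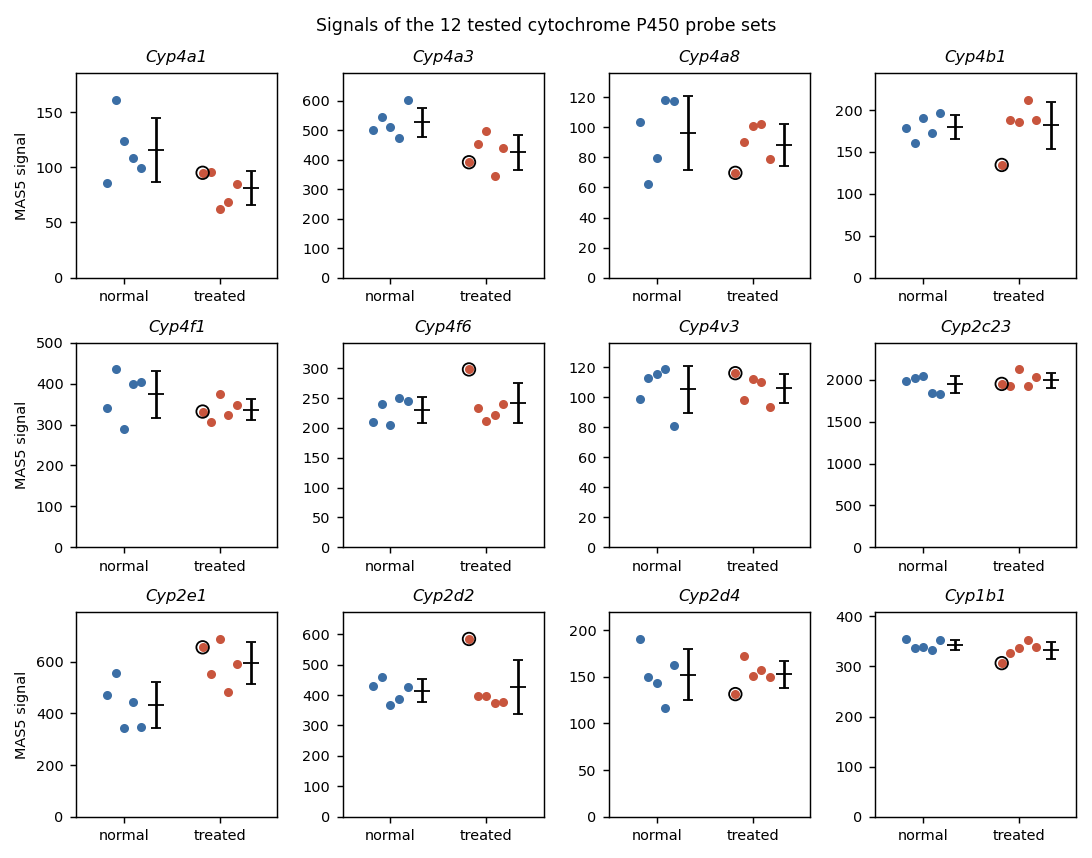
MAS5 signal (vertical axes, from 0) of the 12 tested P450 probe sets in the normal (blue) and treated (red) group, 1 point per array, with the mean and SD beside them; the ring marks treated replicate 6. Cyp4a1 and Cyp4a3 have lower treated means and Cyp2e1 a higher one, and the groups overlap in all 12 panels.

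The Cyp4a enzymes hydroxylate fatty acids at the end of the chain and make the vasoconstrictor hydroxyeicosatetraenoic acid from arachidonic acid in the tubule. Cyp4a3 gave signals of 499, 547, 513, 472 and 603 in normal replicates 1 to 5 and of 392, 454, 497, 344 and 439 in treated replicates 6 to 10. The normal array with the lowest signal lay within the treated range, and 4 of the 5 treated arrays lay below all normal ones. The means were 527 ± 50.4 and 425 ± 59.2, a log2 difference of -0.31 ± 0.093 (limma, unadjusted p = 0.00507, adjusted p = 0.737). Its 95% interval ran from -0.50 to -0.11.

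Cyp4a1, a target of the fatty acid receptor PPAR alpha in adult liver, gave 85.8, 161, 124, 108 and 99.5 in the normal group and 95, 96.1, 62.2, 68.8 and 84.7 in the treated group. Normal replicate 2 was highest by far, and normal replicate 1 was the only normal array inside the treated range. The means were 116 ± 28.9 and 81.4 ± 15.3, with a log2 difference of -0.42 ± 0.15 (limma, unadjusted p = 0.0115, adjusted p = 0.870). These signals lie near the threshold, which 7 arrays reached. The differences of both genes were of like size without treated replicate 6, at -0.28 for Cyp4a3 and -0.48 for Cyp4a1.

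Cyp4a8, the remaining Cyp4a member, had 2 probe sets that disagreed. The tested probe set gave 103, 62.4, 79.6, 118 and 118 in the normal group and 69.7, 90.2, 101, 102 and 79.2 in the treated group. The groups overlapped, with means of 96.3 ± 24.6 and 88.5 ± 14.03 and a log2 difference of -0.084 ± 0.15 (limma, adjusted p = 0.981). Its other probe set stayed under the threshold on every array and gave 38.5, 35.8, 40.8, 46.1 and 48.9 against 24.3, 22.9, 11.9, 31.5 and 12.3. There every treated array lay below every normal array, as it did in either direction for 0.977% of all probe sets without the filter. The log2 difference was -0.69 ± 0.15 in the fit without a filter (limma, adjusted p = 0.485). Which of the probe sets follows the gene was not tested. Cyp4a1 and Cyp4a3 are neighbours in the gene table of the GRCr8 rat assembly, and Cyp4a2, which is no member, is closely related to Cyp4a3; how far these probe sets separate the copies was not tested.

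Most proximal tubule markers also had a lower treated mean. Of 24 tested marker probe sets, 20 had a lower treated mean and 4 a higher one, with a median log2 difference of -0.086 and 0 that passed. An unadjusted p under 0.05 in limma was found for 8 of the 24, all lower, against 281 of all 9601 tested probe sets, or 2.93%, in that direction. The summed signal of the list ran from 26620 to 29588 in the normal group and from 25748 to 28896 in the treated group (exact permutation p = 0.222). The cation transporter gene Slc22a2 gave 130 ± 4.86 and 94.4 ± 17.3, and the endocytosis gene Dab2 965 ± 48.5 and 876 ± 22.1. These were the 2 of 24 with no overlap between groups, against 1.04% of all tested probe sets. The part of these markers in the Cyp4a values was not tested.

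The other family 4 members also hydroxylate fatty acids, and Cyp4f enzymes act on leukotrienes as well. Cyp4f1 gave 341, 435, 288, 400 and 403 in the normal group and 332, 306, 374, 323 and 347 in the treated group. The treated arrays all lay inside the normal range, at a log2 difference of -0.13 ± 0.097 (limma, adjusted p = 0.973). The means were 374 ± 58.5 and 336 ± 25.5. Cyp4f6 gave 209, 239, 205, 251 and 245 in the normal group and 298, 234, 212, 222 and 240 in the treated group. Treated replicate 6 was the only array outside the normal range. The means were 230 ± 21.2 and 241 ± 33.5, and the log2 difference was 0.059 ± 0.091 with all arrays and -0.015 without replicate 6. Cyp4b1 stood at 180 ± 14.2 and 182 ± 28.5, with treated replicate 6 lowest at 134.5 and a log2 difference of 0.0030 ± 0.10. Cyp4v3 stood at 105 ± 15.5 and 106 ± 9.66, a log2 difference of 0.016 ± 0.10, while its other probe set stayed between 12.9 and 37.5. The 95% intervals of the log2 differences were -0.14 to 0.25 for Cyp4f6, -0.22 to 0.22 for Cyp4b1 and -0.20 to 0.24 for Cyp4v3. Cyp4f4, Cyp4f5 and Cyp4f17 were under the threshold on all arrays. Over the 12 fatty acid hydroxylase probe sets, 7 were tested, 3 with a higher and 4 with a lower treated mean, at a median of -0.084.

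**Figure D2:**
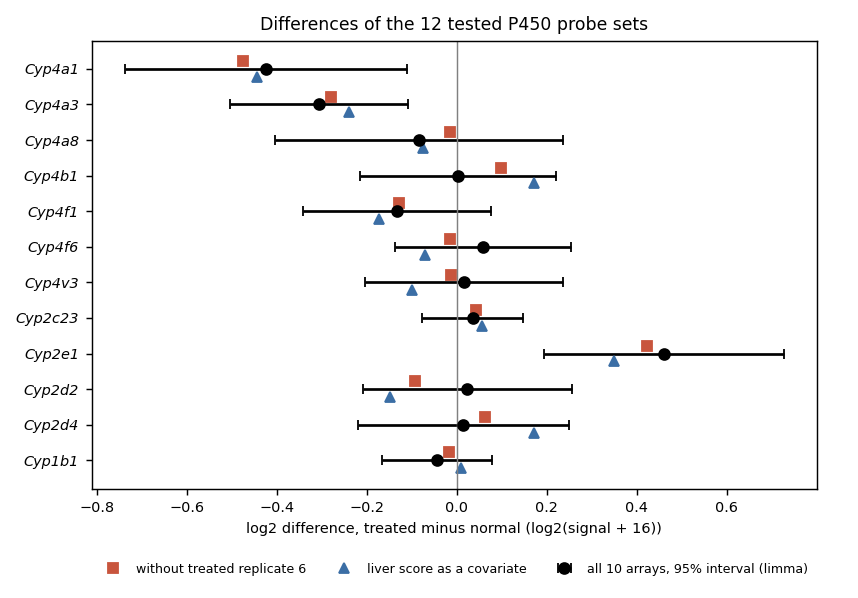
Log2 difference, treated minus normal, of the 12 tested P450 probe sets (horizontal axis, log2(signal + 16) scale). Black points and bars are all arrays with the 95% interval, red squares leave out treated replicate 6, and blue triangles have the liver score as a covariate. The intervals of Cyp4a1, Cyp4a3 and Cyp2e1 lie to a side of 0, and the intervals of the other 9 include it.

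Cyp2c23, the main arachidonic acid epoxygenase of the rat kidney, was the only epoxygenase tested. Its signals were 1982, 2024, 2053, 1846 and 1828 in the normal group and 1953, 1931, 2126, 1924 and 2036 in the treated group. The groups overlapped, with means of 1946 ± 103 and 1994 ± 86.2 and a log2 difference of 0.035 ± 0.052 (limma, adjusted p = 0.974). The 95% interval ran from -0.077 to 0.15, and without treated replicate 6 the difference was 0.042. Cyp2j3 and Cyp2j4, which epoxidise the same fatty acid, were under the threshold on all arrays, at 8.8 to 28.6 and 49.9 to 77.9.

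Cyp2e1, which oxidises ethanol, acetone and other small molecules, had the smallest p of the members. Its signals were 470, 555, 344, 443 and 347 in the normal group and 656, 553, 688, 484 and 593 in the treated group. Of the treated arrays, 3 lay above all normal ones, and normal replicate 2 lay above treated replicates 7 and 9. The means were 432 ± 88.7 and 595 ± 81.1, a log2 difference of 0.46 ± 0.12 with a 95% interval from 0.19 to 0.73 (limma, unadjusted p = 0.00236, adjusted p = 0.676). Liver marker signal was also higher in the treated group. The liver score, the mean log2 signal of the 12 tested liver marker probe sets, was 7.35 ± 0.42 and 8.11 ± 0.73 (exact permutation p = 0.0794), and treated replicates 6 and 8 were highest on both the score and Cyp2e1. With that score added to the model, the log2 difference of Cyp2e1 was 0.35 ± 0.15, and without treated replicate 6 it was 0.42. Normal replicate 4 had the highest score of its group, at 8.10, and a Cyp2e1 signal in the middle of that group. The part of liver RNA in the Cyp2e1 signals was not tested.

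The Cyp2d enzymes oxidise many drugs. Cyp2d2 gave 428.5, 460, 366, 386 and 428 in the normal group and 584, 396, 395, 375 and 377 in the treated group. The means were 414 ± 37.5 and 426 ± 89.2, and treated replicate 6, at 584, lay above all others. The log2 difference was 0.023 ± 0.11 with all arrays and -0.093 without that array. Cyp2d4 stood at 152 ± 27.3 and 153 ± 14.8, a log2 difference of 0.014 ± 0.11. Its other probe set stayed between 20.6 and 50.6. Cyp1b1, an aryl hydrocarbon receptor target that acts on estradiol and retinoids, gave 355, 336, 339, 333 and 352 in the normal group and 306.5, 327, 336, 352 and 339 in the treated group. Treated replicate 6 was lowest, the means were 343 ± 9.86 and 332 ± 16.8, and the log2 difference was -0.045 ± 0.057 (limma, adjusted p = 0.973). Without that array the difference was -0.018. The remaining receptor targets, Cyp1a1 and Cyp1a2, were under the threshold on all arrays.

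A group of 8 members was above threshold on a single array, and that array was treated replicate 6. They were Cyp2c6v1, Cyp2c7, Cyp2c11, Cyp2c13, Cyp2c22, Cyp3a2, Cyp2b3 and Cyp2t1, of which the first 6 belong to subfamilies of adult rat liver. They are singled out by their values, so what follows is a description without a test. The threshold of treated replicate 6, 79.2, was the lowest of all arrays, the others running from 80.6 to 87.6. Cyp2c22 at 81.7 and Cyp2b3 at 84.3 on that array lay within the range of those other thresholds. The share of all probe sets above threshold on that array alone was not counted. Of the 54 member probe sets, 15 were highest on that array, 7 of them at least 2-fold above the next array. Under the threshold there, Cyp3a18 (50.3), Cyp3a23-3a1 (55.9) and Cyp2a2 (23.8) were highest on it too. Cyp1a2 (23.5), Cyp2b21 (16.2) and Cyp2s1 (54.8) were lowest on it. Cyp2c12 was 3.3 there, against 2.1 to 16.4 on the other arrays. The regions around the starts of 4 Cyp2c genes, above threshold on treated replicate 6 alone, are shown with those of Cyp2e1 and Cyp4a3, the tested members with the smallest p. They come from RefSeq on the GRCr8 assembly and run from 250 bases before to 50 bases after each start, written along the gene's own strand. Capitals mark the TATA box letters TATAAA and the nuclear receptor motif letters AGGTCA on either strand.
Cyp2c7, chr1:247966144-247966443 (plus strand): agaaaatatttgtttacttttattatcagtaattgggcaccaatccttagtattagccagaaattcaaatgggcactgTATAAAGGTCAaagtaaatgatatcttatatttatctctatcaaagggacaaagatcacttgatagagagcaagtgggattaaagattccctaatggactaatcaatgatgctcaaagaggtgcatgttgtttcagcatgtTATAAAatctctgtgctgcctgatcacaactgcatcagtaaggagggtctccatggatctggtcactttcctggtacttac
Cyp2c11, chr1:246174966-246175265 (plus strand): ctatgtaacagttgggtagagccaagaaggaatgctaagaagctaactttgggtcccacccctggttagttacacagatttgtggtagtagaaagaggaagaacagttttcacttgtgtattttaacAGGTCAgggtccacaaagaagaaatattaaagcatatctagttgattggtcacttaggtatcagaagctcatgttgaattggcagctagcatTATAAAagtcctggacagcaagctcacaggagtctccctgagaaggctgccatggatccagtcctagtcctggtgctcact
Cyp2c13, chr1:248787139-248787438 (minus strand): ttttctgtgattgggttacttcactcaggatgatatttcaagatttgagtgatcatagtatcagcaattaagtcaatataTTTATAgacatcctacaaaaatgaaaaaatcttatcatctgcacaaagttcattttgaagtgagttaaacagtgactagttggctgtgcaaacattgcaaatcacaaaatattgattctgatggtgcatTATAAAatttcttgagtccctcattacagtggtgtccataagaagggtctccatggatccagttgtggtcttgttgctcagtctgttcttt
Cyp2c22, chr1:248980718-248981017 (minus strand): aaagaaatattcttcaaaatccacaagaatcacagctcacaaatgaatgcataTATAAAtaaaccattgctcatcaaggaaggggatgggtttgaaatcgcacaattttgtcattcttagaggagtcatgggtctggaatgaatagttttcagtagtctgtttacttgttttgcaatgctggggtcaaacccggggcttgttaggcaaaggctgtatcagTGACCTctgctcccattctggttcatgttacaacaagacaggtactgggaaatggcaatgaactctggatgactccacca
Cyp2e1, chr1:205269717-205270016 (plus strand): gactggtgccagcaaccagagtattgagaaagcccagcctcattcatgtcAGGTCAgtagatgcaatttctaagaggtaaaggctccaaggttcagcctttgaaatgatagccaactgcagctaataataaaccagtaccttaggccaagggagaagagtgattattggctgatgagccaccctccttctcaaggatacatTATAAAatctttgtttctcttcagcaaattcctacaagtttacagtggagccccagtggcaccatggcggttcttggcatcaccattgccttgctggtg
Cyp4a3, chr5:134352187-134352486 (minus strand): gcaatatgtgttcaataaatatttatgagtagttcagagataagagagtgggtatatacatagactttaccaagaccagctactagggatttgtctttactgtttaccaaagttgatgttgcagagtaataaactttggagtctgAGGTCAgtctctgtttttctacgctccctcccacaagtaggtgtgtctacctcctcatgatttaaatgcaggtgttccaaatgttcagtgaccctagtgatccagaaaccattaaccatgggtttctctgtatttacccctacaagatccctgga
The letters TATAAA are in the windows of Cyp2c7, Cyp2c11, Cyp2c13, Cyp2c22 and Cyp2e1, and in 12 of the 39 member genes with a window, against 14.2% of all 33469 windows. AGGTCA is in the windows of Cyp2c7, Cyp2c11, Cyp2c22, Cyp2e1 and Cyp4a3, and in 14 of 39 member genes, against 16.2% of all windows. Both strands were searched; the motifs can share 1 base, as they do once in Cyp2c7, and a match is a description of letters and not a site. Members of a subfamily share ancestry and so are not independent examples.

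Cyp2c7, a retinoic acid hydroxylase of adult rat liver, gave 37.9, 39.3, 37.2, 28.7 and 35.4 in normal replicates 1 to 5 and 257, 59.3, 81.3, 45.3 and 34.5 in treated replicates 6 to 10. Treated replicate 6 stood apart and treated replicate 8 came next. The log2 difference was 0.82 with all arrays and 0.42 without replicate 6. Cyp2c11, which hydroxylates testosterone and is typical of adult male liver, gave 41.8, 42.2, 30.9, 37.0 and 52.0 against 156, 42.2, 85.4, 56.2 and 44.8. Cyp2c13 gave 30.1, 31.4, 33.1, 31.8 and 23.6 against 167, 51.5, 59.8, 58.4 and 32.1; its probe set is of a kind whose probes can match several related transcripts. Both were highest in treated replicates 6 and 8, and their log2 differences were 0.59 and 0.81 with all arrays and 0.34 and 0.51 without replicate 6.

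Cyp2c6v1 gave 4.8, 7.2, 3.2, 2.0 and 2.5 in the normal group and 166, 24.4, 31.0, 22.2 and 4.7 in the treated group, with 4 treated arrays above every normal one. Cyp2c22 gave 4.4, 5.2, 6.7, 6.2 and 3.8 against 81.7, 9.7, 16, 6.9 and 20.7, so that its groups did not overlap, by 6.7 against 6.9. Cyp3a2, a steroid hydroxylase of adult male liver, gave 1.9, 0.8, 1.8, 1.8 and 0.8 against 201, 17.4, 5.4, 9.3 and 1.4. The log2 differences of Cyp2c6v1, Cyp2c22 and Cyp3a2 were 1.29, 0.79 and 1.08 with all arrays and 0.82, 0.44 and 0.44 without replicate 6. At signals this low the size follows the pseudocount: with 1 in place of 16 and all arrays the values were 2.61, 1.64 and 2.59. Cyp2b3 and Cyp2t1 reached 84.3 and 89.0 in treated replicate 6, and their log2 differences were 0.24 and -0.03 with all arrays and 0.070 and -0.15 without it.

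**Figure D3:**
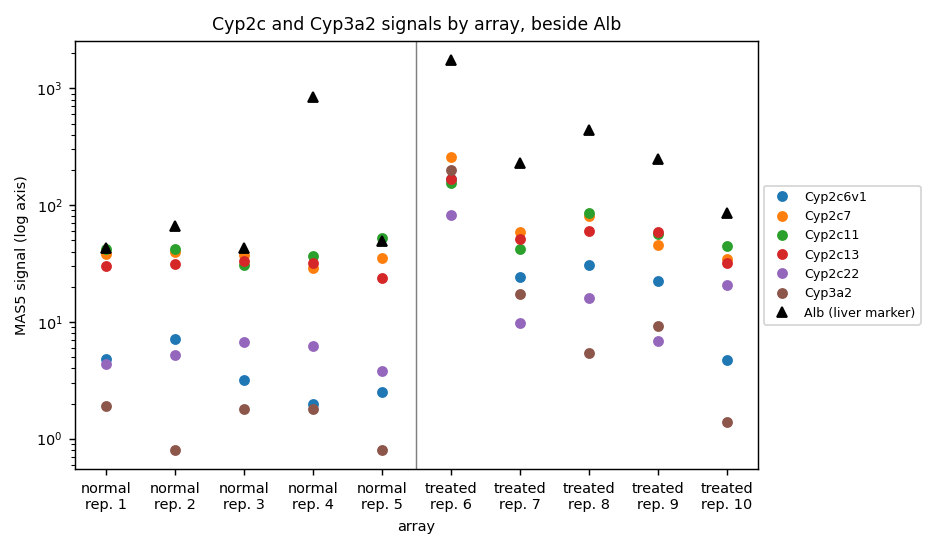
MAS5 signal (vertical log axis) on each array of 5 Cyp2c genes and Cyp3a2 (coloured points) and of the liver marker Alb (black triangles); the line separates the normal from the treated arrays. All 7 are highest in treated replicate 6, where Cyp2c7 reaches 257 and Alb 1742.

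Most liver markers were highest on the same array. Of 31 liver marker probe sets, 23 were highest in treated replicate 6, where 23 were above threshold, against 5 to 16 on the normal arrays and 10 to 14 on the other treated arrays. Their summed signal ran from 5352 to 7748 in the normal group and from 5610 to 13083 in the treated group; Pck1, which the proximal tubule also makes, gave 3000.4 to 3529 of it on each array. Tat, also on the list, stayed between 1.6 and 3.6 on all arrays. The share of all probe sets that were highest in treated replicate 6 was not counted. Some listed markers went the other way. Afp was at its lowest in treated replicate 6, at 706.5 against 717 to 1003.8 on the other arrays. A probe set of Apob was also lowest there, at 42.1. Alb, the gene of serum albumin, was 1742 in treated replicate 6, 842 in normal replicate 4, 436 in treated replicate 8 and 42.9 to 246 on the other arrays. The liver score was 8.10 in normal replicate 4 and 8.24 in treated replicate 8. The 5 Cyp2c genes and Cyp3a2 were all lower in normal replicate 4 than in treated replicate 8. Cyp2c7 was 28.7 against 81.3, Cyp2c6v1 2.0 against 31.0 and Cyp3a2 1.8 against 5.4. In the fit with the liver score, log2 differences were 0.14 for Cyp2c7, 0.12 for Cyp2c11, 0.25 for Cyp2c13, 0.23 for Cyp2c22, 0.45 for Cyp2c6v1 and 0.038 for Cyp3a2. The 4 intestinal marker probe sets, of which 1 passed the filter, summed to 111 to 172 in the normal group and 157 to 411 in the treated group. The exact permutation p of this sum was 0.0159, not adjusted for the other summed lists. The sum was highest in treated replicate 6, where Fabp1, a gene of liver and intestine, was 289. The 6 P450 genes were named because treated replicate 6 was high, and that array also had the highest liver score, 9.31. The fit with the score therefore cannot test the part of liver RNA in these values, and that part was not tested.

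Without the filter, 12 of the 54 member probe sets had an unadjusted p under 0.05 in limma, 9 higher and 3 lower, against 5.22% of all probe sets. None had an adjusted p under 0.05, the smallest being 0.485 for the second Cyp4a8 probe set. The 9 that were higher included 5 of the 8 members above threshold in treated replicate 6 alone. The 2 of 54 members whose groups did not overlap were that Cyp4a8 probe set and Cyp2c22, against 0.977% of all probe sets without the filter. Cyp2c22, separated by only 6.7 against 6.9, is also one of the 8 members singled out by treated replicate 6.

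Of the 5 steroid hormone enzymes, 3 were above threshold on a single array, normal replicate 1, and they too are described without a test. How many of all probe sets were above threshold on that array alone was not counted. Cyp11a1, which cleaves the side chain of cholesterol in the first step of steroid synthesis, gave 295 there, against 55.6 to 78.2 on the other normal arrays and 46.4 to 72.2 on the treated arrays. Cyp21a1, an enzyme of cortisol-type and aldosterone-type steroids, gave 195 there, against 7.9 to 25.6 and 10.7 to 34.4. Cyp11b1, which makes the final step to corticosterone, gave 156 there, against 5.1 to 17.7 and 2.0 to 19.6. The log2 differences between groups were -0.50, -0.42 and -0.47 with all arrays, and -0.11, 0.0998 and 0.043 without normal replicate 1. Cyp17a1 and Cyp19a1, which lead to sex steroids, were under the threshold everywhere, at 3.2 to 17.7 and 2.6 to 30.9.

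Adrenal markers were high on that array. Hsd3b1, a steroid dehydrogenase gene, was 218 in normal replicate 1 and 1.5 to 6.3 on the other arrays, and Akr1b7 was 116 against 3.2 to 14.9. Of 13 adrenal marker probe sets, 7 were highest there, and their summed signal was 1693 against 1084 to 1142 on the other normal arrays and 1011 to 1184 on the treated arrays. The share of all probe sets that were highest in normal replicate 1 was not counted. Nr5a1, the regulator of adrenal steroid enzymes, and Chga, a marker of the adrenal medulla, were near the floor on every array, at 0.8 to 1.4 and 0.9 to 1.8. Of the list, 3 probe sets, of Fdx1 and Scarb1, were above the filter; both genes are also made in kidney. The part of adrenal RNA in the steroid enzyme signals was not tested.

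**Figure D4:**
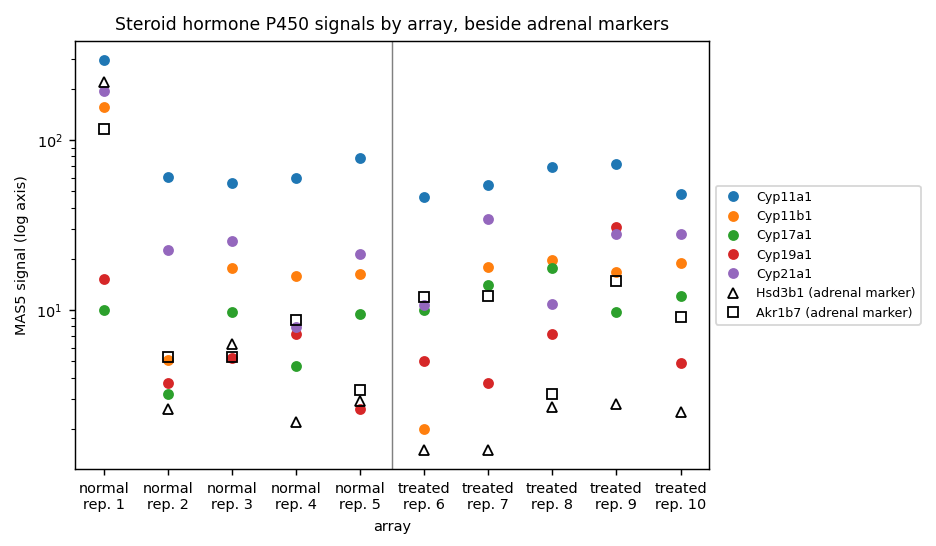
MAS5 signal (vertical log axis) on each array of 5 steroid hormone P450 genes (coloured points) and 2 adrenal markers (open symbols); the line separates the normal from the treated arrays. Cyp11a1, Cyp11b1, Cyp21a1, Hsd3b1 and Akr1b7 are all highest in normal replicate 1, where Cyp11a1 reaches 295 and Hsd3b1 218.

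The sterol, bile acid and retinoid members were low. Cyp27a1, a mitochondrial enzyme that hydroxylates the sterol side chain, stood at 84.8 ± 9.22 and 82.2 ± 6.36 and was above threshold on 3 arrays. Cyp7a1, the rate-limiting enzyme of bile acid synthesis, Cyp7b1 and Cyp8b1 were under the threshold on all arrays, between 4.8 and 73.7. Cyp26a1 and Cyp26b1, which degrade retinoic acid, ran from 33.7 to 49.9 and from 5.1 to 42.1, also under the threshold. Of the 4 family 3 drug-metabolising members, only Cyp3a2 was ever above it. Over all members under the threshold everywhere, signals ran from 0.9 to 82, and a signal in that range does not show that a gene was silent.

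The partners of the P450 enzymes did not pass the test either. Of the electron supply genes, 10 probe sets of 7 genes were tested, 5 higher and 5 lower, with a median log2 difference of -0.011 and 0 passing. The 2 probe sets of Por stood at 190 ± 20.7 and 172 ± 15.3, and at 341 ± 30.0 and 334 ± 25.3. The adrenodoxin gene Fdx1, which serves mitochondrial members, differed by -0.11 ± 0.069, and by -0.064 without normal replicate 1, its highest array. A probe set of Pgrmc2 differed by 0.16 ± 0.092, with treated replicate 6 highest at 538, and by 0.074 without that array. The other Pgrmc2 probe set differed by 0.021 ± 0.081. Of the haem genes, 9 probe sets were tested, 3 higher and 6 lower, at a median of -0.064 and with 0 passing. The housekeeping haem synthase gene Alas1 stood at 389 ± 25.5 and 364 ± 48.8. The erythroid form Alas2 stood at 435 ± 70.6 and 553 ± 169, highest in treated replicate 10.

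Of the regulators, 11 probe sets were tested, 6 higher and 5 lower, at a median of 0.016, with 0 passing and 1 at an unadjusted p under 0.05. That was Nr1h4, which encodes the bile acid receptor FXR. Its signals were 183, 172, 162, 164 and 171 in the normal group and 160, 147, 146, 148 and 142 in the treated group. Every treated array lay below every normal array, while 1.04% of all tested probe sets had no overlap in either direction. The log2 difference of Nr1h4 was -0.18 ± 0.068 (limma, unadjusted p = 0.0181, adjusted p = 0.907). Hnf4a, a regulator of liver and proximal tubule genes, differed by -0.12 ± 0.098. The probe set of Ppara, which encodes the fatty acid receptor that drives Cyp4a genes, stayed between 3.6 and 6.4 and gave no usable comparison. Of the eicosanoid partners, 7 probe sets were tested, 2 higher and 5 lower, at a median of -0.035 and with 0 passing. The phospholipase gene Pla2g4a, which releases arachidonic acid, differed by -0.077 ± 0.063 and the leukotriene synthase gene Ltc4s by 0.11 ± 0.091.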

How the data were processed

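The authors deposited 1 signal intensity per probe set and array, on a linear scale, and MAS5 is named in the submitters' processing notes, without a version. With 2% trimmed at each end, the mean was 250 on every array, so no further scaling was applied. Arrays were grouped by their titles. Probe sets were named from GEO's platform annotation (1 symbol for 12789, several for 312, none for 2822), and all 51 member genes matched the GRCr8 gene table; 39 had a promoter entry. Signals were transformed as log2(signal + 16). The 57 control probe sets were left out, and 9601 of 15866 others passed the filter. The test between groups was limma's moderated test (version 3.58.1, R 4.3.3), fitted with a mean-variance trend and two-sided. Its p-values were adjusted by Benjamini-Hochberg across the 9601 probe sets, with 0.05 as the threshold. Single values had exact two-sided permutation tests, which for 5 against 5 arrays cannot go below 0.00794. Precision is limited by the small number of arrays.

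The members and lists were chosen with earlier results of these data known. All members that passed the filter are named; all arrays are given for those whose groups did not overlap, for the 8 with the smallest p and for up to 2 per role; a member below the filter is named where an array reached the 40th percentile or another of its probe sets was tested. Genes of the electron supply, haem, regulator and eicosanoid lists were named where groups did not overlap and up to 2 per list by p. Por, Ppara and the single genes of the tissue marker lists were named outside that rule, with their values known. Other members under the threshold on all arrays, such as Cyp2j3, Cyp1a2 and Cyp7a1, were also named outside these rules, some for their values. They were not checked for outlying arrays. Markers of erythroid cells, intestine and other nephron segments were also listed: 0 of 4, 0 of 1 and 0 of 15 tested probe sets passed. The test was tried on simulated data with 200 changed probe sets. Alternatives were pseudocounts of 1 and 32, other filters and scalings, no trend, array weights, the liver score as a covariate, gene means, exact rank tests and the omission of single arrays. The rank test used an approximation where signals were tied. Figures were drawn with matplotlib 3.10.9.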

Additional observations from a re-analysis of the deposited data

Results flagged for a closer look

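Among 54 groups of 5 arrays checked, those of 27 named member probe sets, 7 had an array far from the other 4. Chance flags about 1 in 20 groups of members not chosen for their values. Here several members, Cyp3a2, Cyp11a1, Cyp11b1 and Cyp21a1 among them, were named because a single array was high, so the number of such arrays is a description and was not set against chance. Treated replicate 6 gave 4 of them and normal replicate 1 gave 3. In treated replicate 6, Cyp2d2 was high at 584 (next highest of its group 396), Cyp3a2 was high at 201.4 (next 17.4), the second Cyp2d4 probe set was low at 20.6 (next lowest 40.6) and Cyp11b1 was low at 2 (next 16.8). In normal replicate 1, Cyp11a1 was high at 295 (next 78.2), Cyp11b1 at 156 (next 17.7) and Cyp21a1 at 195 (next 25.6). Treated replicate 6 also had the most liver marker signal and normal replicate 1 the most adrenal marker signal; the part of either in these values was not tested.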

How the results depend on the processing

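No P450 probe set passed under any alternative run, the gene means included. The exact rank test is no support for this, because it could not have passed any. With no filter, 31 of 54 members were higher. In the fit that includes the liver score, the 12 tested members had a median log2 difference of -0.073. Leaving out each array gave 4 to 6 higher members and 0 to 1 member without overlap (1 without normal replicate 1, 2 or 4 or treated replicate 8). The alternatives for the liver score and for the overlap count were chosen after the data were seen. The liver score difference, 0.76 (exact permutation p = 0.0794), was 0.44 with the filter on all arrays (exact permutation p = 0.0238), and 0.46 to 0.95 when each array was left out, with exact permutation p = 0.0159 without normal replicate 4 and 0.0476 without treated replicate 10. Of 20 tested P450 and partner probe sets, 13 kept their direction in every setting, Cyp2e1, Cyp4a1, Cyp4a3, Cyp2c23 and Cyp4f1 among them. The other 7 have differences near 0. The liver covariate turned Cyp1b1 (0.0086), Cyp2d2 (-0.15), Cyp4f6 (-0.070) and Cyp4v3 (-0.10), and array weights turned Cyp2d2 (-0.040) and Cyp4a8 (0.052). Leaving out single arrays gave -0.093 to 0.062 for Cyp2d2, -0.069 to 0.092 for Cyp2d4, -0.052 to 0.098 for Cyp4b1, -0.015 to 0.10 for Cyp4f6 and -0.062 to 0.056 for Cyp4v3; the cause was not tested. Unadjusted p-values stayed under 0.05 in all settings run for Cyp2e1 and Cyp4a1, and for Cyp4a3 in all but the liver covariate (0.0514). No paired analysis was possible because the groups share no replicate number. Members under the threshold are limited by signal over background: with a pseudocount of 1 the second Cyp4a8 probe set differed by -1.08.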
